A study of Arabidopsis thaliana with 2 samples.

Results

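The transcriptome of wild-type Arabidopsis thaliana embryos at the early globular stage was described from 1 poly(A) RNA library, the wild-type library of a series of 2. All 20612 loci of the deposited table were used, from its column for wild type, with no further choice by a measured value. The table itself holds only loci with a read in at least 1 of the 2 libraries. The loci were ranked by RPM, the reads of a locus scaled to the genome-matching reads of the library and given per 1000000 of them. The embryos were of the accession Col-0, and 30 of them, dissected by hand, were pooled. The plants had grown in days of 16 hours of light, and the RNA had passed through 2 rounds of linear amplification. The other library, from embryos of the strain dcl1-5, served here in no comparison. With n = 1 there is no replicate error, and the 95% intervals given are exact Poisson intervals on reads, which cover counting error alone.

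At the early globular stage the Arabidopsis embryo is a small ball of dividing cells on a suspensor. Its outer layer, the protoderm, has just been set apart from the inner cells, auxin transport and response are beginning to mark the future root pole, and the shoot and root meristems are not yet morphologically visible. The storage proteins and oil of the seed are laid down much later, in maturation. In a pool of whole embryos, fewer cells of a type and less RNA per cell cannot be told apart.

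The library held 5611643 genome-matching reads, of which 5061561, or 90.2%, fell in the listed loci, and 1 read was worth 0.178 RPM. Reads were seen for 18768 loci, or 91.1% of those listed, and 15935 loci had at least 3 reads, the detection floor used here, which is 0.535 RPM. Each of the 1844 loci at 0 had a read in the other library, so the table lists loci seen in at least 1 of the 2 libraries and the share of loci at 0 does not extend to the whole genome. The median locus stood at 3.21 RPM, or 18 reads, and the quartiles at 0.535 RPM and 13.5 RPM, whereas the mean was 43.8 RPM.

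Loci at 1 RPM or more numbered 14133 (68.6% of those listed). Those at 10 RPM or more numbered 6127 (29.7%), and those at 100 RPM or more numbered 1146 (5.56%). By abundance class, 1844 loci had no reads, 4635 were above 0 and under 1 RPM, 8006 stood from 1 to under 10 RPM, 4981 from 10 to under 100 RPM, 967 from 100 to under 1000 RPM, and 179 at 1000 RPM or more. The class limits cut through a continuous range. The highest loci under the limit of 10 RPM had 56 reads (9.98 RPM) and the lowest above it had 57 reads (10.2 RPM). At the limit of 1000 RPM, AT3G52580 lay below with 969 RPM and RPL23AA, a ribosomal protein gene, above with 1009.7 RPM.

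Reads were concentrated in few loci. The 179 loci of the highest class were 0.868% of the loci and held 51.1% of the reads in listed loci, while the 4635 loci under 1 RPM held 0.215%. The 170 highest loci together reached 50% of the listed reads, the 835 highest 75% and the 2963 highest 90%. Of all genome-matching reads, the highest locus took 4.09% (exact binomial 95% interval 4.08 to 4.11), the 10 highest 11.2% (11.2 to 11.2), the 100 highest 35.8% (35.8 to 35.8) and the 1000 highest 69.8% (69.8 to 69.9).

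**Figure D1:**
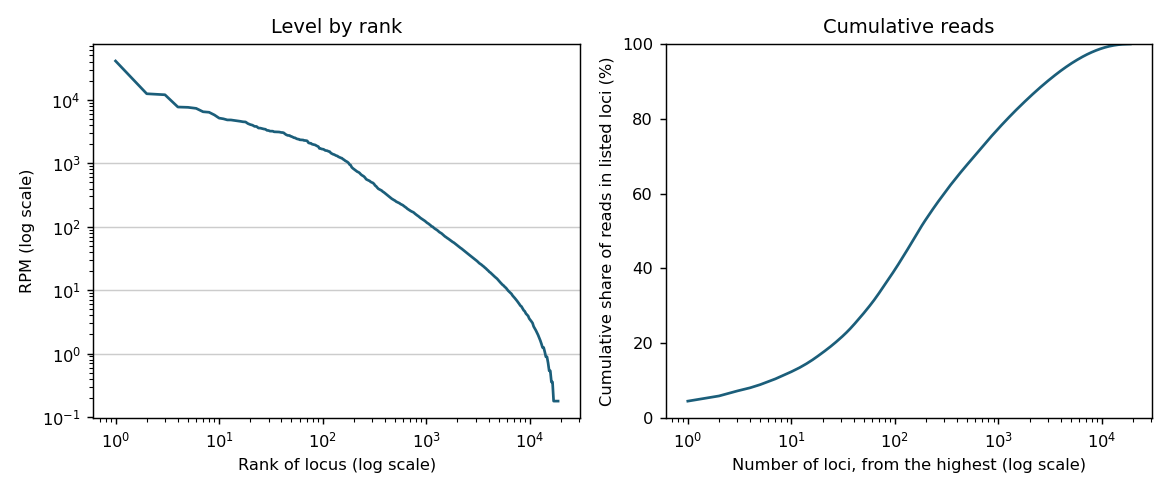
Left, RPM of each locus against its rank, both axes on a log scale, with grey lines at the class limits of 1, 10, 100 and 1000 RPM. Right, cumulative share of the reads in listed loci, in percent, against the number of loci counted from the highest (log scale). The curve passes 50% at 170 loci.

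**Figure D2:**
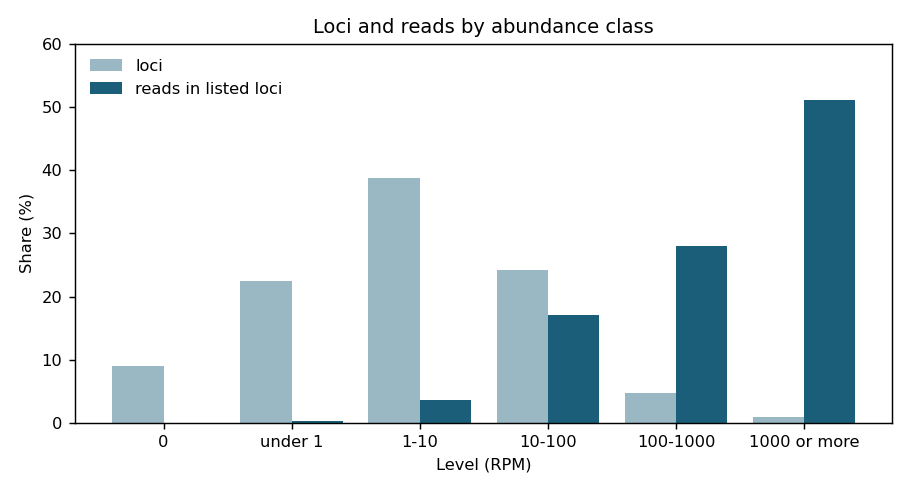
Share of the 20612 listed loci (light bars) and of the reads in listed loci (dark bars) in each RPM class, in percent. The class at 1000 RPM or more holds 0.868% of loci and 51.1% of reads.

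Loci of the upper classes had shorter transcripts. The median exon length of the longest annotated transcript was 1797 bases for loci at 1 to under 10 RPM, 1266 bases at 100 to under 1000 RPM and 997.5 bases at 1000 RPM or more, and the medians of the coding length were 1240.5, 666 and 507 bases. Longer transcripts can yield more reads at equal abundance, so an order of levels between genes is read below from RPM per kb of exon. RPM given alone states each gene's own share of the reads. Whether reads rose in proportion to length in this amplified library was not tested. The highest locus was the same on both scales, and 17 of the 25 highest loci by RPM and 83 of the 100 highest were also among the 25 and 100 highest by RPM per kb.

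The locus with the most reads in this library was AT3G24250, annotated as a glycine-rich protein. It had 229681 reads, or 40929 RPM (95% interval 40762 to 41097), 3.28 times the RPM of the next locus. Its exons span 703 bases, which gave 58221 RPM per kb, against 10714 RPM per kb for the next locus on that scale, NDPK1, a nucleoside diphosphate kinase. It lies on the + strand of chromosome 3, at 8786689 to 8787391 of TAIR10.1, and overlaps no other annotated locus. All of the 25-base stretches in its exons occur at no other place in the genome. Glycine-rich proteins are a mixed group of wall and RNA-binding proteins. Of the 35 listed loci with that product name, 19 reached 10 RPM, beside 29.7% of all loci. AT3G24250 and 1 other, or 2 of the 35, reached 1000 RPM, beside 0.868% of all loci. The other was GRP2, an RNA-binding cold-shock protein, at 3283 RPM, which overlaps another locus on the same strand. GRP7 was not counted, because its product is named otherwise.

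Genes of the translation machinery filled most of the remaining top ranks. Of the 25 loci with the highest RPM, 15 encode ribosomal proteins by their product names. EMB2296, annotated in the ribosomal protein L2 family, stood at 12012 RPM and 10206 RPM per kb. AT5G20290, of the S8e family, had 7700.4 RPM and 6894 RPM per kb. AT5G15200, of ribosomal protein S4, had 7611 RPM and 7565 RPM per kb. The others were SAC52 (6485 RPM), RPL18 (5777 RPM), emb2171 (5149.65 RPM), AT5G02960 (5017 RPM), AT3G09200 (4815 RPM), AT2G41840 (4587 RPM), AT5G27850 (4507 RPM), RPS13A (4477 RPM), AT4G39200 (3985 RPM), AT3G24830 (3816 RPM), AT2G21580 (3798 RPM) and P40 (3592 RPM). Of these, AT3G09200, AT2G41840 and RPS13A overlap another locus on the same strand. AT5G18380 (4074 RPM), whose product is named a ribosomal protein S5 domain 2-like superfamily protein, was not counted, because that fold is shared with proteins outside the ribosome. The name alone does not settle whether this gene encodes a ribosomal protein, so 15 can be an undercount. Ribosomal subunits are built from equal numbers of nearly all their proteins, and Arabidopsis encodes most of them in several genes, so reads that fit more than 1 copy were discarded and these values can be too low.

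The second locus by RPM was AT5G60390, which encodes elongation factor 1-alpha, the factor that brings aminoacyl-tRNA to the ribosome, with 12465 RPM and 5508 RPM per kb. Its copies AT1G07940, AT1G07930 and AT1G07920 stood at 1892 RPM, 1523 RPM and 1439 RPM. Of their 25-base stretches 41.6%, 41.5% and 29.8% are unique in the genome, against 85.01% for AT5G60390, so the balance among the 4 copies is uncertain. AT1G07940 and AT1G07920 also overlap another locus on the same strand. EIF4A1, the helicase of translation initiation, had 3116 RPM but overlaps another locus on the same strand. TCTP, a growth-associated protein named for its translational control, had 4649 RPM.

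Among the 25 highest loci, AGP15, AT5G11740, encodes an arabinogalactan protein, a small proteoglycan of the cell surface, and stood at rank 6 with 7332 RPM and 7091 RPM per kb. ENODL14, an early nodulin-like protein related to copper-binding cell-surface proteins, had 3580.4 RPM and 4262 RPM per kb. GRP7, a circadian RNA-binding protein, had 6364 RPM. AT5G48480, of the glyoxalase I family, had 4735 RPM, and its rank fell from 14 by RPM to 70 by RPM per kb. PDF1, a proline-rich protein of the outermost cell layer, was rank 19 with 4215 RPM.

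Other loci of these surface protein families also ranked high. Counted by product name, after their levels had been seen, 10 of 36 listed arabinogalactan protein genes and 7 of 17 early nodulin-like genes were at 100 RPM or more, beside 5.56% of all loci. AGP1 had 2524 RPM and 2668 RPM per kb, and AGP9 had 1699 RPM and 1248 RPM per kb. ENODL13 and ENODL3 stood at 1859 RPM and 1664 RPM. Among the lipid transfer proteins, which are secreted or membrane-anchored and take part in building the cuticle, LTP3 had 2289 RPM, LTPG1 1976 RPM and LTP6 1593 RPM. CYP78A5, a cytochrome P450 known as KLUH that promotes organ growth, had 1173 RPM and was named after its level was seen.

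The 12 product classes, assigned by words in the annotated product names, were spread unevenly over the abundance classes, and the loci named for each are its highest by RPM. Ribosomal proteins made up 85 of the 179 loci at 1000 RPM or more, or 47.5% (exact 95% interval 40.0 to 55.1), but 1.504% of all listed loci. Their 310 loci had a median of 178 RPM, held 26.4% of all genome-matching reads, and 3 of them were at 0. The count took only product names in which the words ribosomal and protein stand side by side. It leaves out loci named otherwise, such as AT3G05560 (Ribosomal L22e protein family, 2346 RPM) and AT4G15000 (Ribosomal L27e protein family, 2099 RPM). Also left out are UBQ5 (3019.8 RPM) and UBQ1 (1698 RPM, overlapping another locus on the same strand), which encode ubiquitin fused to a ribosomal protein and were counted as ubiquitin. The 85 loci and 47.5% are therefore an undercount of ribosomal protein genes. Loci with histone names were at 100 RPM or more in 33 of 94 cases (35.1%, beside 5.56% of all loci), led by AT5G59690 (3109 RPM) and AT4G40040 (2844 RPM). Histones package DNA, but the words used can also fit enzymes that act on histones. Loci named as initiation or elongation factors, words that can also fit factors of transcription, were at that level in 28 of 130 cases (21.5%). Proteasome subunits, parts of the protease that degrades ubiquitin-tagged proteins, had a median of 58.6 RPM, with 36 of 43 loci at 10 RPM or more (83.7%, beside 29.7% of all loci). Their highest were PAC1 (549 RPM) and PBE1 (477 RPM).

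Loci with tubulin in the product name, or a name that begins with actin, had a median of 7.13 RPM over 82 loci. Such names can also fit proteins that bind or resemble tubulin or actin. The highest members were TUA2 (1714 RPM) and TUA4 (1574 RPM), which are 67.4% and 59.7% unique in 25-base stretches. Heat shock and chaperone genes had a median of 6.42 RPM over 225 loci, led by Hsp70-2 (1580.5 RPM) and HSC70-1 (1576 RPM). Ubiquitin-related genes had a median of 5.88 RPM over 245 loci. Lipid transfer genes had a median of 1.43 RPM over 71 loci although 3 of them exceeded 1000 RPM. The class was spread over the whole range, with 10 loci at 0 and 21 at 10 RPM or more (29.6%, beside 29.7% of all loci). At 100 RPM or more stood 10 (14.1%, beside 5.56% of all loci).

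F-box, protein kinase and pentatricopeptide genes had medians below that of all loci. F-box proteins, the substrate adaptors of ubiquitin ligases, had a median of 0.535 RPM over 271 loci, and none reached 100 RPM. The highest were AT1G76920 (43.8 RPM) and FBW2 with AT4G33160 (41.5 RPM each). Protein kinases had a median of 1.78 RPM over 669 loci, with 8 at 100 RPM or more (1.196%, beside 5.56% of all loci), and the highest were the receptor-like kinase genes AT3G56370 (719.8 RPM) and AT3G02880 (193 RPM). Pentatricopeptide proteins, which bind organelle RNA, had a median of 1.25 RPM over 193 loci, with 16 at 10 RPM or more (8.29%, beside 29.7% of all loci), led by PPR596 (50.4 RPM) and NFD5 (48.3 RPM). By RPM per kb, the class medians lay at the percentile 97.2 of all loci for ribosomal proteins, 90.8 for proteasome subunits, 34.7 for protein kinases, 29.2 for pentatricopeptide proteins and 25.8 for F-box proteins. The order of these 5 medians was the same by RPM and by RPM per kb. Loci of unknown or hypothetical product were 14.0% of the loci at 0 and 1.68% of those at 1000 RPM or more, beside 10.1% of all listed loci. The highest were AT4G33145 (1939 RPM) and AT5G16250 (1449 RPM).

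**Figure D3:**
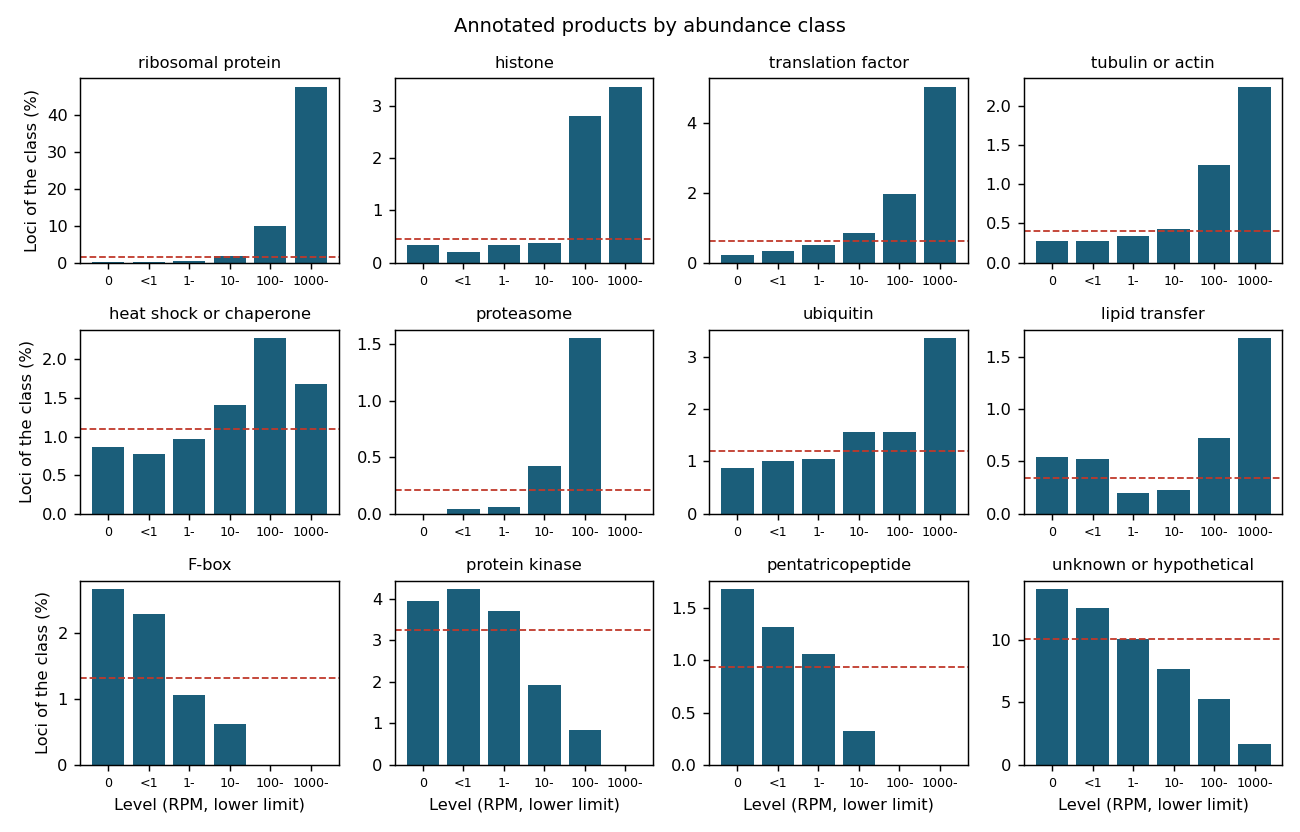
Share of the loci in each RPM class, in percent, that carry the product named above each panel, with a dashed line at the share among all listed loci. Panels have separate vertical scales. Loci counted as ribosomal proteins are 47.5% of the loci at 1000 RPM or more, and F-box and pentatricopeptide loci are absent from both classes at 100 RPM or more.

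The sequences before the most abundant genes were read from the TAIR10.1 assembly at the annotated gene starts. The following 120 bases directly before the start are shown for the 3 highest ribosomal protein genes and for AT3G24250, because the first 3 differ from the last in the motifs searched. Capitals mark a match, on either strand, to a TATA box (TATAAA), a site II element (TGGGCC or TGGGCT) or a telo-box (AAACCCTA). Site II elements and telo-boxes are known from plant ribosomal protein promoters.
EMB2296, chr2:7836947-7837066, + strand: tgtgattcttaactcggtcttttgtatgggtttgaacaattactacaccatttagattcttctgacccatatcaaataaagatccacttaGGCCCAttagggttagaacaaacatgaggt
AT5G20290, chr5:6853107-6853226, - strand: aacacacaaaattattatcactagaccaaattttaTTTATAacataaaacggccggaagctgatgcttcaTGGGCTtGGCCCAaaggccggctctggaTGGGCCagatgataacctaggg
AT5G15200, chr5:4936430-4936549, - strand: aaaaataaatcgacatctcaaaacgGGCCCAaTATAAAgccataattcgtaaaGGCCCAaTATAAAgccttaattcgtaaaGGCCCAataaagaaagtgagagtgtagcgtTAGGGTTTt
AT3G24250, chr3:8786569-8786688, + strand: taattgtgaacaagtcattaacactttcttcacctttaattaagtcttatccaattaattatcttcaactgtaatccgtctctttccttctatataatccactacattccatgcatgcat

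The 120 bases before AT5G15200 held 3 site II matches, those before AT5G20290 also 3, and those before EMB2296 held 1. The 120 bases before AT3G24250 held none of the 3 motifs, which says only that these letters are not in this window. Over all listed loci with a window from 250 bases before to 50 after the gene start, 24.8% held a site II match, 5.77% a telo-box and 52.2% a TATA box. Among all 27561 protein-coding loci of the annotation the shares were 21.7%, 6.20% and 52.1%.

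The share with a site II match was higher in each higher abundance class, from 14.5% of the loci at 0 (exact 95% interval 12.9 to 16.2) to 70.2% of the loci at 1000 RPM or more (62.9 to 76.8). The telo-box was found in 4.86% of loci at 0, and in 5.03%, 4.92% and 6.02% of the next classes in order, up to 100 RPM. It was found in 10.996% at 100 to under 1000 RPM and 37.6% (30.5 to 45.2) at 1000 RPM or more. Among loci at 100 to under 1000 RPM not counted as ribosomal proteins it was in 7.13% (5.51 to 9.05), an interval that holds the 5.77% of all listed loci. The TATA box, searched on either strand, showed no order like that of site II, with 55.0% of the loci at 0 and 59.0% (51.4 to 66.3) in the highest class. On the sense strand alone it was found in 39.2% of the loci at 0, 36.6% of all listed loci and 49.4% of the highest class. Of the ribosomal protein genes at 1000 RPM or more, 83.5% held a site II match and 51.8% a telo-box, and of those under 100 RPM, 48.5% and 21.5%. Among loci at 1000 RPM or more that were not counted as ribosomal proteins, 58.1% held a site II match (47.4 to 68.2) and 24.7% a telo-box (16.4 to 34.8). That group still holds ribosomal protein genes that the count left out, such as AT3G05560 and UBQ5. Its shares are therefore not those of genes outside the ribosome alone. A match describes the sequence and does not show a working site.

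**Figure D4:**
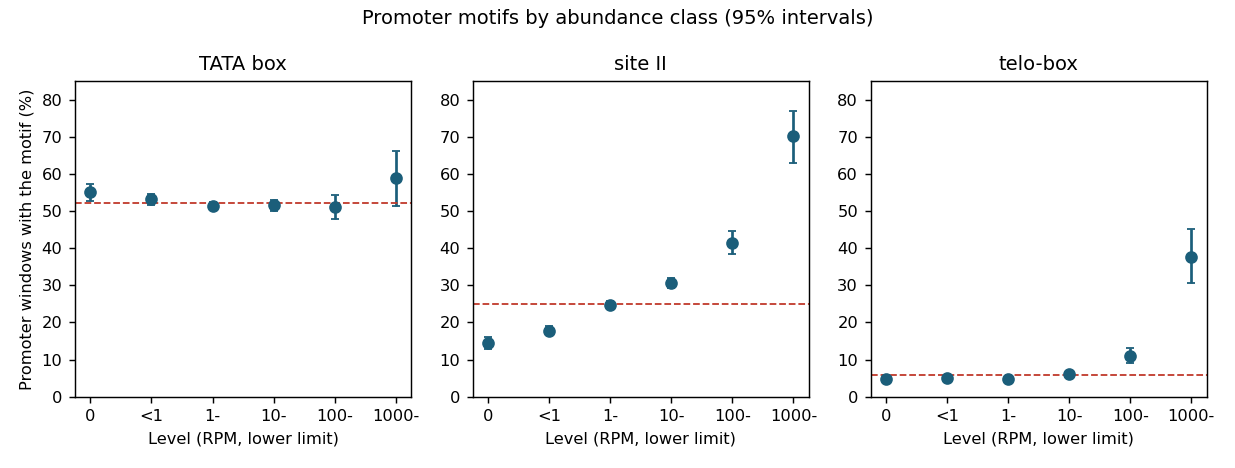
Share of promoter windows, in percent, with a match to each motif on either strand, by RPM class, with exact 95% intervals and a dashed line at the share of all listed loci. The site II share runs from 14.5% at 0 to 70.2% at 1000 RPM or more, and the TATA box share stays between 51.0% and 59.0%.

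Genes of embryo patterning, most of them regulators and a few of them structural products that mark a tissue, were described in 8 lists with 114 members, of which 110 had a row and the other 4 (RKD4, YUC9, TMO7 and FEZ) were not analysed here. Their median was 8.11 RPM, against 3.21 RPM for all listed loci. At 1 RPM or more stood 84.5% of the members, beside 68.6% of all listed loci. At 10 RPM or more stood 45.5%, beside 29.7%, and at 100 RPM or more 9.09%, beside 5.56%. Without PDF1, LTP1 and FDH, which are structural products or enzymes, 7 of 107 members, or 6.54%, were at 100 RPM or more, near the share of all loci. There were 7 at 0. By list, the median was 20.9 RPM for the epidermis, 17.6 RPM for auxin, 11.6 RPM for the root pole, 8.91 RPM for the zygote and basal lineage, 6.77 RPM for regulators of maturation, 6.59 RPM for the SERK co-receptors, 2.85 RPM for polarity and vascular genes and 2.58 RPM for the shoot apex. The last 2 medians were under the median of all loci. Corrected for length, the medians took another order, with 10.6 RPM per kb for the root pole, 10.2 for auxin, 5.48 for the epidermis, 4.54 for the zygote and basal lineage, 2.57 for the SERK co-receptors, 2.54 for maturation regulators, 1.88 for the shoot apex and 1.599 for polarity and vascular genes. The median of all loci was 1.81 RPM per kb, so that the shoot apex then stood just above it.

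**Figure D5:**
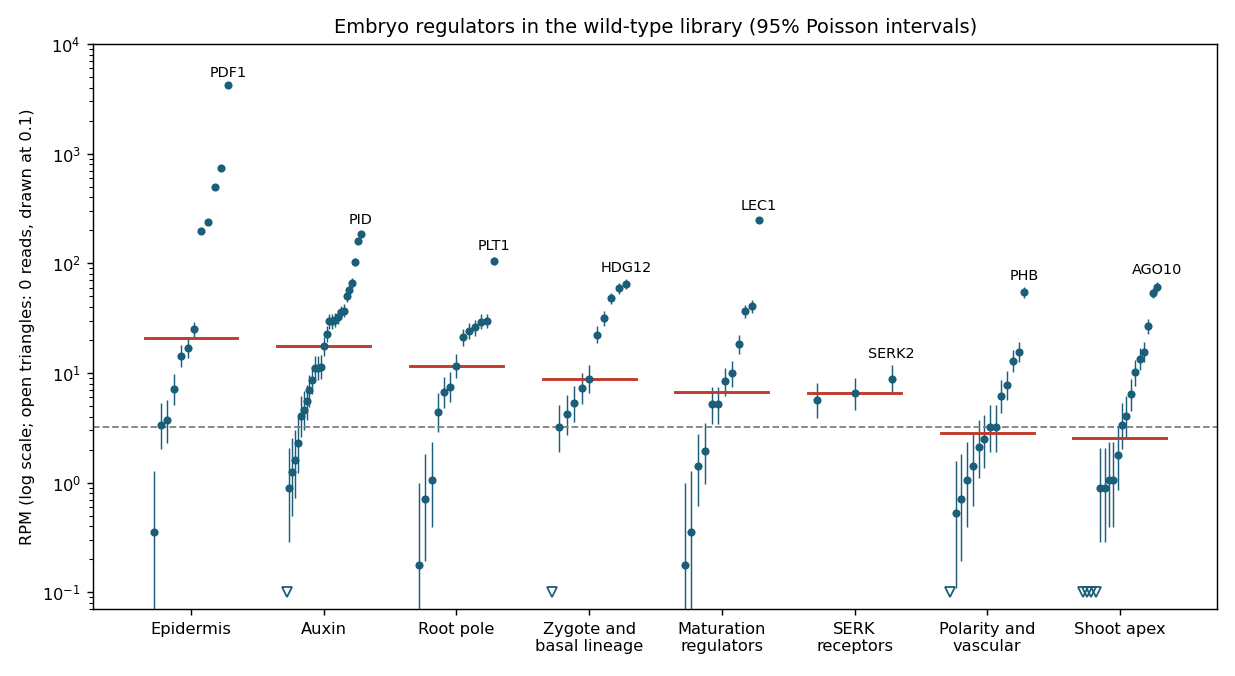
RPM of each listed member of the 8 regulator lists on a log scale, with exact 95% Poisson intervals as bars, red lines at the list medians and a dashed line at the median of all loci, 3.21 RPM. Open triangles at the bottom are members with 0 reads, and the highest member of each list is named. PDF1, at 4215 RPM, stands above all other members.

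The epidermis list held the most abundant members and also many low ones, so its median gives a poor picture of it. PDF1 had 4215 RPM (95% interval 4162 to 4269) and 3013 RPM per kb. The homeodomain factors that specify the protoderm, ATML1 and PDF2, had 196 RPM and 497 RPM, which was 49.3 RPM per kb (46.4 to 52.3) for ATML1 and 151 RPM per kb (146 to 157) for PDF2, so PDF2 was the higher of these close relatives beyond counting error. LTP1, a lipid transfer protein, had 744 RPM, and FDH, a fatty acid elongation enzyme of the cuticle, had 238 RPM. The receptor kinases needed for an intact embryonic surface had 24.9 RPM for GSO1, 16.9 RPM for ALE2, 7.13 RPM for GSO2 and 3.39 RPM for ACR4. DEK1, the calpain of epidermal fate, had 14.4 RPM and HDG2, a relative of ATML1, 3.74 RPM. ALE1, a subtilisin-like protease known to be made by the endosperm, had 2 reads, under the floor. In this list 5 of 12 members were at 100 RPM or more (41.7%, beside 5.56% of all loci).

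In the auxin list, 17 of 27 listed members were at 10 RPM or more (62.96%, beside 29.7% of all loci) and 3 at 100 RPM or more (11.1%, beside 5.56%). PID, the kinase that directs PIN carriers in the membrane, had 186 RPM and 88.8 RPM per kb (83.5 to 94.4). Of the influx carriers, LAX2 stood at 159 RPM and 84.7 RPM per kb (79.2 to 90.4), within counting error of PID, AUX1 at 56.7 RPM and 20.8 RPM per kb and LAX1 at 32.3 RPM and 13.6 RPM per kb. Of the efflux carriers described, PIN4 had 11.2 RPM, PIN3 5.52 RPM, and PIN7, known for transport from the suspensor into the young embryo, 7 reads or 1.25 RPM, which was 0.448 RPM per kb (0.180 to 0.922). GN, a regulator of vesicle trafficking needed for embryo polarity, had 4.63 RPM.

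MP, the response factor that drives embryonic root initiation, had 104 RPM, or 28.6 RPM per kb (26.4 to 31.1). Its inhibitor IAA12, also called BDL, had 49.9 RPM, or 35.9 RPM per kb (31.8 to 40.3), and the related IAA13 had 30.5 RPM. By RPM, MP was the higher of the interacting pair. Per kb, IAA12 was the higher, with intervals that do not overlap but cover counting error alone. The order of the pair thus depends on the division by exon length. Of the targets of MP, TMO3 had 37.1 RPM, TMO6 29.8 RPM and TMO5 8.73 RPM, and LHW, the partner of TMO5, had 11.4 RPM. The auxin receptors had 35.8 RPM for AFB2, 29.6 RPM for TIR1, 22.8 RPM for AFB3 and 2.32 RPM for AFB1. Of the biosynthesis genes, YUC1 had 17.6 RPM, YUC4 11.2 RPM, YUC3 6.95 RPM, TAA1 4.099 RPM, TAR2 1.604 RPM and YUC8 0.891 RPM. TAR1 had no reads (95% interval 0 to 0.657 RPM).

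At the root pole, PLT1, an AP2-type factor of the root stem cells, was highest at 104 RPM and 44.1 RPM per kb (40.6 to 47.8). Its relatives PLT2, BBM and PLT3 had 29.9 RPM, 7.48 RPM and 4.46 RPM, and PLT2 had 13.3 RPM per kb (11.4 to 15.5). SCR and SHR, which together pattern the ground tissue, had 29.4 RPM and 26.02 RPM, and per kb they were 10.6 (9.03 to 12.3) and 11.97 (10.1 to 14.1), intervals that overlap. JKD, a zinc finger partner of both, had 24.4 RPM, and MGP, another of that family, 1.07 RPM. WOX5, a marker of the quiescent centre, had 65 reads, or 11.6 RPM. WIP4, WIP5 and NTT, zinc finger factors required together to start the root, had 21.2 RPM, 6.77 RPM and 0.713 RPM. SMB, a root cap factor, had 1 read.

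In the zygote and basal lineage list, HDG12, an HD-ZIP factor of the zygote, was highest by RPM at 64.7 RPM, which was 20.2 RPM per kb, and its relative HDG11 had 3.21 RPM and 0.915 RPM per kb. The kinase cascade that lengthens the zygote showed 7.31 RPM for YDA, the upstream kinase, 31.5 RPM for MKK4, 22.5 RPM for MKK5, 48.1 RPM for MPK6 and 59.2 RPM for MPK3. Per kb, MPK3 (31.8) and MPK6 (28.1) exceeded HDG12. MKK4 overlaps another locus on the same strand. SSP, whose transcript is known from sperm, had no reads. WRKY2, which activates WOX8 in the zygote, had 5.35 RPM. The homeobox genes of the basal lineage, WOX8 and WOX9, had 4.28 RPM and 8.91 RPM, or 3.72 RPM per kb (2.38 to 5.53) and 4.54 RPM per kb (3.37 to 5.98), which overlap.

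WOX2, the homeobox gene of the apical lineage, had 13.5 RPM and 10.6 RPM per kb (8.36 to 13.3), above both WOX8 and WOX9 per kb. In the shoot apex list AGO10, which maintains the shoot meristem, was highest by RPM at 61.5 RPM, or 16.2 RPM per kb, and TPL, a co-repressor that keeps root fate out of the apex, had 53.8 RPM. ESR1 and ESR2, factors that promote cotyledon formation, had 26.7 RPM and 15.7 RPM, or 21.4 and 15.5 RPM per kb, which put ESR1 first on that scale. The list also held HAN, a GATA factor that sets the embryo boundary, with 10.2 RPM. CUC3, CUC1 and CUC2, which separate the cotyledons, had 6.42 RPM, 4.099 RPM and 3.39 RPM.

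Genes of the shoot stem cells were at or near the floor. WUS, which maintains them, had 10 reads, or 1.78 RPM (0.855 to 3.28), and STM, the homeobox gene that keeps meristem cells undifferentiated, had 6 reads, or 1.07 RPM (0.392 to 2.33). The related KNAT6 also had 6 reads, and KNAT2 and the receptor kinase CLV1 had 5 each. CLV3, the peptide that limits the stem cells, KNAT1, WOX1 and ATH1 had none (95% interval 0 to 0.657 RPM each). In this list 6 of 18 members were at 10 RPM or more, or 33.3%, close to the 29.7% of all loci.

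Among the genes of adaxial and vascular identity, PHB led its family of HD-ZIP III factors with 54.4 RPM and 17.3 RPM per kb (15.4 to 19.3). PHV had 15.7 RPM and 5.09 RPM per kb, ATHB-15 13.0 RPM and 3.596 RPM per kb, REV 7.84 RPM and 2.21 RPM per kb, and HB-8 2.49 RPM and 0.789 RPM per kb. On the abaxial side, YAB1 and YAB5 had 3.21 RPM each, KAN2 1.43 RPM, KAN1 1.07 RPM and KAN3 0.713 RPM, and YAB3 had no reads. AS1 and AS2, which act together in leaf polarity, had 6.24 RPM and 2.14 RPM. ZPR3, a small inhibitor of the HD-ZIP III factors, had 3 reads. In this list 3 of 14 members were at 10 RPM or more, or 21.4%, beside 29.7% of all loci.

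Of the maturation regulators, LEC1, a subunit of the NF-Y complex that confers embryonic identity, stood far above the others at 251 RPM (238 to 264) and 259 RPM per kb. NF-YB6, its closest relative, had 18.4 RPM and 15.5 RPM per kb and overlaps another locus on the same strand. WRI1, the activator of oil synthesis, had 40.6 RPM. The B3 factors had 36.7 RPM for ABI3, 5.17 RPM for FUS3 and 1.43 RPM for LEC2, or 11.8, 3.22 and 1.08 RPM per kb. AGL15, a MADS factor of the embryo, had 9.98 RPM, and the repressors of embryonic genes PKL and HSI2 had 8.38 RPM and 5.17 RPM. EEL, a bZIP factor of late maturation, had 1.96 RPM. PKL and EEL overlap another locus on the same strand. ABI4 and ABI5, abscisic acid response factors, had 2 reads and 1 read. The co-receptor kinases SERK2, SERK1 and BAK1 had 8.91 RPM, 6.59 RPM and 5.70 RPM.

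The products of maturation were near 0. Of 18 genes for storage proteins, oil bodies and late embryogenesis proteins, 12 had a row, none reached 1 RPM, and the highest was RAB18, a dehydrin, with 3 reads. The oleosins OLEO3, OLEO1, OLEO2 and OLEO4 had 2, 1, 1 and 1 reads, EM6, PER1 and ECP63 also had 1 read each, and SESA2, SESA3, SESA4 and CRA1, all seed storage protein genes, had none. The other 6 were not analysed here.

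Among genes of the cell cycle, 21 of 39 were at 10 RPM or more, or 53.8%, beside 29.7% of all loci. KN, the syntaxin of cell plate formation, was highest at 301 RPM and 217 RPM per kb. The mitotic cyclins CYCB1;2 and CYCB1;3 had 185 RPM and 138 RPM, the first of which shares sequence with another place in the genome, and PCNA1, the replication clamp, 129.7 RPM, and per kb PCNA1 had 115 (107 to 123) and CYCB1;2 had 104 (97.6 to 110.3), intervals that overlap. CYCD6;1 and CYCD7;1 had no reads.

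Of 20 genes of RNA silencing, AGO9 was the highest at 306 RPM and 99.5 RPM per kb (94.9 to 104), followed per kb by AGO4, at 197 RPM and 60.7 RPM per kb (57.2 to 64.4), and AGO1, at 126 RPM and 34.9 RPM per kb (32.4 to 37.6). AGO9 and AGO4 bind small RNAs that direct DNA methylation, and AGO1 is the main effector of microRNAs. SE, a factor of microRNA processing, had 71.3 RPM. DCL1, the enzyme that cuts microRNA precursors, had 26 reads, or 4.63 RPM, and overlaps another locus on the same strand. Of 15 genes of chromatin and DNA methylation, CMT3, the methyltransferase of CHG sites, had 145 RPM and 47.1 RPM per kb. FIE and MSI1, both subunits of Polycomb complexes, had 54.9 RPM and 52.4 RPM, or 35.1 and 32.2 RPM per kb, and MET1, the methyltransferase of CG sites, had 36.2 RPM, or 7.15 RPM per kb. VIM1, a methylation cofactor named after its value was seen, stood between MSI1 and MET1 per kb, at 12.5.

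Of 36 MIRNA loci, which give the precursors of microRNAs, 16 had no reads, 8 had 1 or 2 reads and 12 had at least 3. Of all listed loci, 8.95% had no reads. The 16 have a row only because the dcl1-5 library had a read for them. The count at 0 therefore depends on that library and does not describe MIRNA genes of wild type in general. Reads of this poly(A) library come from the primary transcript and do not measure the mature microRNA. MIR775 was highest with 35 reads, or 6.24 RPM (4.34 to 8.67). MIR824 had 20 reads, MIR156c 18, MIR162a 11, MIR167a 7, MIR419 5 and MIR158a 3. MIR402 (13 reads), MIR169a (10), MIR835 (10), MIR840 (7) and MIR860 (7) overlap another locus on the same strand, so their reads may belong to it. The mature sequences of the 3 highest, from the RefSeq annotation of TAIR10.1 and written with T as in the genome, share no seed (bases 2 to 8, in capitals).
miR775, chr1:29422546-29422565, + strand: tTCGATGTctagcagtgcca
miR824-5p, chr4:12625128-12625148, + strand: tAGACCATttgtgagaaggga
miR156c-5p, chr4:15415491-15415510, - strand: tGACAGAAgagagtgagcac

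Other noncoding loci reached higher levels. AT3G12965, annotated as other RNA, had 1088 RPM over 374 bases of exon and overlaps no locus on the same strand. TAS3, whose transcript is cut into small RNAs against auxin response factors, had 101 RPM.

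Reads were also seen for genes known from neighbouring seed tissues. All 18 genes of the seed coat list had a row and reads, 13 were at 1 RPM or more (72.2%, close to the 68.6% of all listed loci), and their median was 4.37 RPM. Without the 5 highest members, left out after their values were seen, the median was 2.32 RPM, under the 3.21 RPM of all loci. CHS, the first enzyme of flavonoid synthesis, had 1113 RPM, F3H 153 RPM, LDOX 131 RPM and STK, an ovule MADS factor, 76.4 RPM. BAN, an enzyme of tannin synthesis in the inner seed coat, had 183 reads, or 32.6 RPM. TTG2 and TT10 had 2 and 3 reads. Flavonoid enzymes are also made outside the seed coat. Of the endosperm list, 10 of 13 genes had a row, with a median of 1.07 RPM, FWA at 13.5 RPM, SUC5 and HDG3 at 10.7 RPM each, MEA at 2.67 RPM and AGL36 at 0. Of the pollen list, 4 of 6 had a row, with BCP1 at 31.0 RPM, VGD1 at 21.2 RPM, and ACA9 and HAP2 at 2 reads and 1 read. The part of these tissues in the levels above was not tested.

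Genes of photosynthesis had a median of 72.3 RPM, and 24 of 27 were at 10 RPM or more (88.9%, beside 29.7% of all loci). RBCS1A, the small subunit of the carbon-fixing enzyme, had 1383 RPM, RBCS3B 343 RPM, PSBO1 of the oxygen-evolving complex 220.3 RPM and PSAL of photosystem I 177 RPM. A list of 15 stress-response genes held genes induced by wounding, heat or touch and others, such as COR15A, RD29A and ADH1. Of these 15, TCH4, a wall enzyme, had 113 RPM, ZAT12 94.6 RPM, ZAT10 55.4 RPM and HSP101, a heat shock protein, 32.1 RPM. Per kb these 4 had 71.2, 96.5, 42.5 and 9.77, so that ZAT12 was first on that scale. The list median was 19.1 RPM, and whether dissection raised it was not tested. Of the common reference genes, EIF4A1 had 3116 RPM, UBQ10 1543 RPM, ACT7 1363 RPM, GAPC1 723 RPM and SAND 4.99 RPM.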

How the data were processed

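Per the design text of the series, reads of the strand-specific library were mapped by the authors with Bowtie (version not given in the sources used here) to the TAIR9 genome, with up to 2 mismatches in a 25-base seed. Reads with more than 1 place in the genome were discarded. A read counted for a gene when it lay on the opposite strand, since the amplification kit yields antisense RNA. The deposited values are RPM, the unit that the sample labels and the column header name. Unique mapping lowers genes with near-identical copies, and amplified reads are not independent molecules.

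From these values whole reads were recovered (100% within 0.01 reads). With 1 library no count test was possible, and no value of the other library was used beyond whether it had a read. Intervals are exact Poisson (levels) or exact binomial (shares), and the floor is 3 reads. Of the 20612 loci, 20509 have an entry under the same locus name in RefSeq's TAIR10.1 annotation, which differs from the authors' TAIR9 annotation; it gave products, exon lengths of the longest transcript, overlaps on the same strand, unique 25-base stretches and sequences. The other 103 are given no name. Of these, 50 have 20 or more reads, and 40 repeat exactly the reads of a neighbouring row, in all 15747 reads counted for more than 1 row, so that a class count can include the same reads more than once.

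Genes named are the 25 highest loci, all members of the 8 regulator lists apart from 1 that is not reported here, the 4 highest members and the members at 0 of 10 other lists, the 2 highest loci of each product class and MIRNA loci with at least 3 reads, and others are said to be or were chosen after their values were seen. The members and lists were chosen with earlier results of these data known. Alternatives were RPM per kb, scaling to listed reads, other class limits, 50% of the reads, overlapping loci left out and other motif windows. The scripts, tested on simulated data, ran in Python 3.11.15, with matplotlib 3.10.9 for figures, scipy 1.17.1 for intervals, and pandas 2.3.3 and numpy 2.4.6 for tables.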

Additional observations from a re-analysis of the deposited data

How the results depend on the processing

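Of 91 values under alternatives, 60 stayed within 1.5 times the reported count or within the 95% interval of the reported value, and 31 moved. With 50% of the reads, 3165 loci were at 0. Class limits 2 times higher left 561 loci at 100 to under 1000 RPM and 78 at 1000 RPM or more, and limits divided by 2 gave 2833 loci above 0 and under 1 RPM and 1715 and 296 in the upper classes. The shares of the 1, 10, 100 and 1000 highest loci became 4.54%, 12.4%, 39.7% and 77.4% of the reads in listed loci, 7.03%, 15.0%, 47.0% and 83.6% of summed RPM per kb, and 1.2997%, 7.92%, 33.2% and 68.6% without AT3G24250, an alternative added after seeing the data; without repeated rows, also added then, the share of 1000 was 69.7%. By RPM per kb the percentile of the list median among all loci was 78.4 for the root pole (72.8 by RPM), 69.1 for the epidermis (81.2), 55.9 for maturation regulators (63.7) and 56.1 for SERK receptors (63.2), and counting auxin genes without a row as 0 gave 72.5 (79.0). The median of the seed coat list was 2.32 RPM without its 5 highest members, left out after seeing the data. At 1000 RPM or more, the sense strand alone held a TATA box in 49.4%, a telo-box in 22.5% and a site II match in 49.4% of windows (36.6%, 3.39% and 16.8% of all listed loci), and the bases before the gene start alone held them in 47.8%, 16.9% and 62.9% (47.1%, 3.78% and 21.8%). Each alternative changes its value by construction. The sense-strand share of the TATA box at 1000 RPM or more still stood above that of all listed loci, unlike the share on either strand, whose interval held it. No organelle loci are listed, so leaving them out gave no value. No paired analysis was possible because each group has 1 library and no tests were run. Depth limits what can be said of genes under 3 reads.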

Other observations

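The L1 box (TAAATGCA or TAAATGTA), a motif known from genes of the outer cell layer, was searched after the level of PDF1 had been seen. On either strand of the window from 250 bases before to 50 after the gene start it was found in 5.39% of all listed loci, 2.81% of the 178 loci at 1000 RPM or more with a window (exact 95% interval 0.918 to 6.43) and 4 of the 12 genes of the epidermis list. In PDF1 the match began 30 bases after the annotated gene start. The list was chosen with its levels known, so the count is a description.

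By chromosome, the median level ran from 3.03 RPM on chromosomes 1 and 2 to 3.74 RPM on chromosome 3. Chromosome 3 held 19.8% of the loci and 26.3% of the listed reads, AT3G24250 included.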
